A study of Sus scrofa with 6 samples.

Results

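Antigen presentation genes encode the machinery that cuts proteins into peptides, carries the peptides into membrane compartments and loads them onto major histocompatibility complex (MHC) molecules for display to T cells. The set described here was chosen by gene symbol, and its 10 genes are CD74, B2M, TAP1, TAP2, TAPBP, PSMB8, PSMB9, CIITA, NLRC5 and SLA-DRA. Of these, 8 were matched to a row among the 17670 genes of the deposited count table. They are 6 of the 7 class I genes and 2 of the 3 class II genes. B2M and SLA-DRA are not analysed here.

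The libraries came from cultures of immature Sertoli cells, which surround and feed germ cells in the testis, isolated from pig fetuses at 80 to 90 days of gestation. Control cells (3 libraries) were compared with cells given 250 µM of AA2P, the phosphate ester of ascorbic acid used as long-lived vitamin C in culture, after 6 h of culture (3 libraries). The comparison asked how vitamin C altered the transcriptome, and no source used here gave the length of exposure. The labels name no genetic alteration, strain or second agent in either group, and both groups shared a medium with fetal bovine serum and penicillin-streptomycin. Whether libraries with the same treatment stem from different animals or dishes is not stated, so the p-values rest on a spread that may be technical.

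In the class I route, the proteasome cuts cytosolic proteins, and cells exposed to interferon exchange its catalytic subunits for PSMB8, PSMB9 and PSMB10, which gives the immunoproteasome. The TAP1 and TAP2 proteins form a transporter that moves peptides into the endoplasmic reticulum, where tapasin (TAPBP), calreticulin and PDIA3 help to load them onto class I chains paired with beta-2 microglobulin. In the class II route, the invariant chain CD74 blocks the groove of newly made class II chains until endosomal cathepsins cut it, and DM molecules then exchange its remnant for a peptide. NLRC5 and CIITA are related coactivators of class I and class II promoters, and both work on a platform of RFX, NFY and CREB family proteins. Pig MHC genes carry the prefix SLA.

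Library totals ran from 18747307 to 23521291 counts, and the upper limit behind a count of 0, set at 3 counts, corresponded to 0.123 to 0.165 CPM (read counts brought to a common library size, scaled by trimmed mean of M values, TMM), counting error only. The labelled cell type was checked against 18 Sertoli markers, of which 11 had a row. CLU, WT1, AMH and SOX9 were at 4229.9 ± 168, 40.7 ± 4.21, 36.4 ± 1.52 and 11.6 ± 0.648 CPM in control cells (SD, n = 3). AMHR2, INHA, DHH, KITLG and NR5A1 were each under 1 CPM, so these defining markers were near 0. In bulk libraries, fewer cells of a type and less RNA per cell cannot be told apart.

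Most of the antigen presentation genes with a row were lower in the AA2P libraries, by small amounts, in both classes. Of 8 genes, 6 fell and 1 rose by edgeR's quasi-likelihood test at a Benjamini-Hochberg adjusted p of 0.05. Of all 12701 tested genes, 26.1% were called lower and 26.0% higher, 52.1% in all. Among class I genes TAP2, TAPBP, PSMB8 and PSMB9 fell, NLRC5 rose and TAP1 was not called. Both class II genes with a row, CD74 and CIITA, fell. The median log2 fold change was -0.23 over the 6 class I genes and -0.38 over the 2 class II genes, beside 0.00 over all tested genes. The CPM values of the groups did not overlap for 7 of the 8 genes, beside 59.3% of all tested genes (29.5% lower and 29.8% higher with AA2P). NLRC5 passed the filter on low counts through its AA2P values alone, so its difference was partly fixed by that filter.

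The scaling chosen for the libraries changed these counts. When library totals replaced the TMM factors, the median over all tested genes shifted upward by 0.17 on the log2 scale, and 45.1% of them were called higher and 14.3% lower. Under that scaling TAP2, PSMB9 and CIITA still fell, NLRC5 rose, and TAPBP, PSMB8, CD74 and TAP1 were not called. The class I and class II medians were then -0.06 and -0.21. Every direction given below is relative to the TMM scaling.

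**Figure D1:**
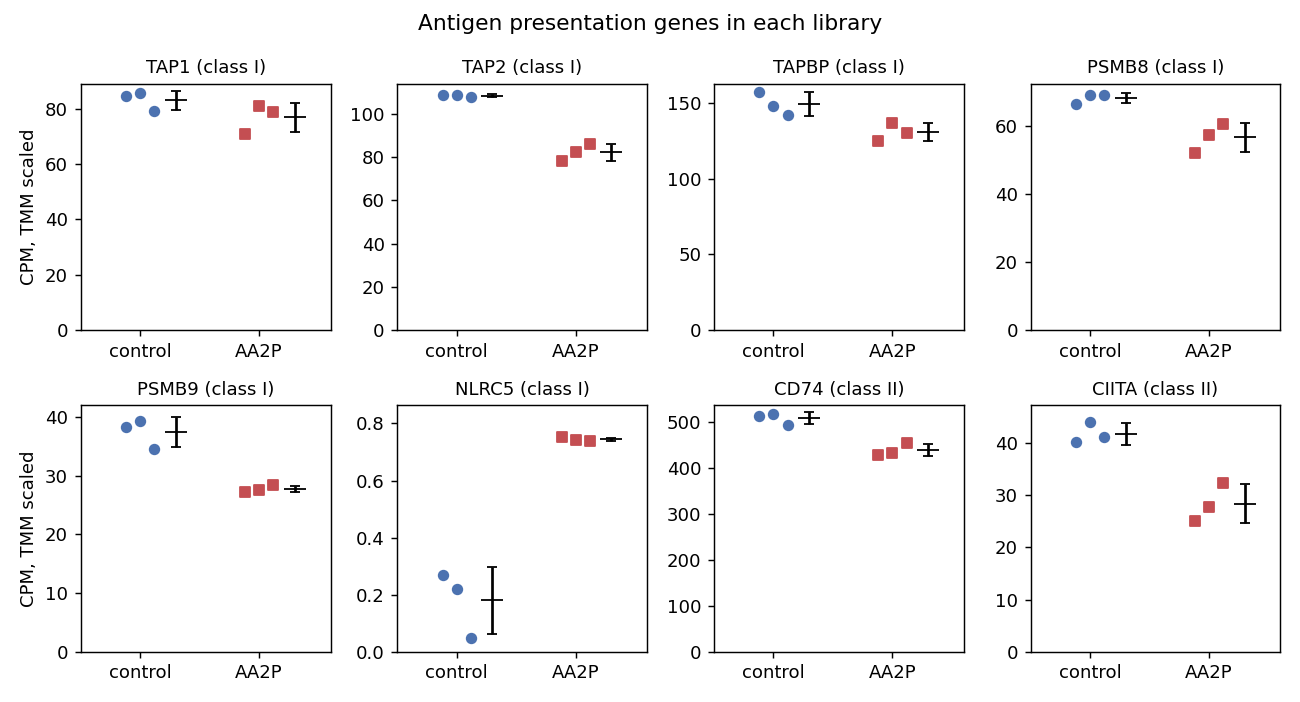
Level of each antigen presentation gene in CPM (TMM scaled, vertical axes from 0) in the 3 control libraries (circles) and 3 AA2P libraries (squares), with the mean and SD as a bar beside them. The groups do not overlap for 7 of the 8 genes, the exception being TAP1, and NLRC5 lies below 1 CPM throughout.

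Of the peptide transporter's subunits, TAP2 fell and TAP1 was not called. TAP2 (ENSSSCG00000025593) stood at 109, 109 and 108 CPM in control libraries 1 to 3 and 78.3, 82.4 and 86.1 CPM in AA2P libraries 1 to 3. All AA2P libraries lay below all control libraries, and TAP2 fell 1.32-fold, with a log2 fold change of -0.40 (standard error 0.05, adjusted p = 7.6e-06 by edgeR). TAP1 (ENSSSCG00000025618) stood at 84.4, 85.6 and 79.2 CPM in control libraries 1 to 3 and 70.8, 80.9 and 78.7 CPM in AA2P libraries 1 to 3. The AA2P library 2 value lay above that of control library 3, so the groups overlapped, and the log2 fold change of -0.11 (standard error 0.06) had an adjusted p of 0.131 by edgeR. With library totals TAP1 changed sign, to 0.06, with an adjusted p of 0.430.

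Tapasin, the bridge between the transporter and an empty class I molecule, fell by a small amount. TAPBP (ENSSSCG00000001507) was at 158, 148 and 142 CPM in control libraries 1 to 3 and 125, 137 and 131 CPM in AA2P libraries 1 to 3. The groups did not overlap, but the lowest control and the highest AA2P library were close. The fall was 1.14-fold, with a log2 fold change of -0.19 (standard error 0.05) and an adjusted p of 0.00835 by edgeR. Without control replicate 1, the highest library, the call was lost at an adjusted p of 0.0636, and the number of genes of the set called lower went from 6 to 5.

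Both immunoproteasome subunits of the set fell. PSMB9 (ENSSSCG00000001463), which takes the place of PSMB6 in the catalytic core, was at 38.3, 39.3 and 34.5 CPM in control libraries 1 to 3 and 27.2, 27.6 and 28.4 CPM in AA2P libraries 1 to 3. It fell 1.35-fold (log2 fold change -0.43, standard error 0.07, adjusted p = 6.6e-05 by edgeR), and its AA2P libraries had a coefficient of variation of only 2.05%. PSMB8 (ENSSSCG00000026951), which takes the place of PSMB5, was at 66.6, 69.1 and 69.1 CPM in control libraries 1 to 3 and 52.1, 57.2 and 60.5 CPM in AA2P libraries 1 to 3. Its groups also did not overlap, and it fell 1.20-fold (log2 fold change -0.27, standard error 0.06, adjusted p = 0.00170 by edgeR), a call that library totals did not give (adjusted p = 0.177).

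The third immunoproteasome subunit and its regulators went in both directions. PSMB10, which takes the place of PSMB7, went from 90.3 ± 1.30 to 78.3 ± 7.42 CPM (SD, n = 3; adjusted p = 0.0128 by edgeR). Its call was lost without control replicate 1 and with library totals, at adjusted p-values of 0.0510 and 0.655. PSME2, a subunit of the interferon-inducible PA28 activator, fell 1.30-fold from 98.9 ± 0.561 to 75.9 ± 5.03 CPM. PSME4, which encodes the activator PA200, was called higher at a log2 fold change of 0.13, and lost that call under 7 of 14 alternatives. PSME3 was at 137 ± 5.37 CPM in controls and 132 ± 3.86 CPM with AA2P, and was not called. PSME1 and POMP had rows at 0.911 ± 0.268 and 1.75 ± 0.205 CPM in controls, and neither was called.

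The class I coactivator NLRC5 (ENSSSCG00000039751) was close to the detection limit. It had 11 reads over the 3 control libraries and 48 over the 3 AA2P libraries. Its levels were 0.270, 0.220 and 0.0485 CPM in control libraries 1 to 3 and 0.751, 0.743 and 0.740 CPM in AA2P libraries 1 to 3. The AA2P values rested on 15, 15 and 18 reads, so their closeness says little about the spread. The groups did not overlap, while control library 3 held a single read. NLRC5 passed the filter on low counts through its AA2P values alone, so this separation was partly fixed by that filter. The ratio of the summed levels was 4.12, with an exact 95% interval of 2.11 to 8.80 that covers counting error only. The fitted log2 fold change was 2.01 (standard error 0.45, adjusted p = 0.00135 by edgeR) and ran from 1.56 to 2.47 over 13 alternatives, among them a fit without any filter on low counts (adjusted p = 0.000459). A filter of 1 CPM in 3 libraries removed the gene, and the set then held no gene called higher.

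On the class II side, both the invariant chain and the coactivator fell. CD74 (ENSSSCG00000033262) was at 512, 516 and 492 CPM in control libraries 1 to 3 and 428, 432 and 453 CPM in AA2P libraries 1 to 3. The groups did not overlap, and CD74 fell 1.16-fold (log2 fold change -0.21, standard error 0.05, adjusted p = 0.00134 by edgeR). With library totals its log2 fold change was -0.04 and its adjusted p 0.462. CIITA (ENSSSCG00000007901), the coactivator that class II transcription depends on, was at 40.2, 44.1 and 41.1 CPM in control libraries 1 to 3 and 25.0, 27.7 and 32.4 CPM in AA2P libraries 1 to 3. Its highest AA2P library, number 3, lay below its lowest control library. CIITA fell 1.47-fold (log2 fold change -0.55, standard error 0.08, adjusted p = 3.4e-05 by edgeR), and it was called under all 14 alternatives, with log2 fold changes from -0.66 to -0.39.

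Of 11 listed symbols of class II chains, 4 had a row. Of these, 2 fell, beside 26.1% called lower over all tested genes. With library totals 1 fell, beside 14.3%. SLA-DQB1, the beta chain of the DQ molecule, was at 9.28, 11.3 and 11.5 CPM in control libraries 1 to 3 and 6.61, 7.38 and 7.52 CPM in AA2P libraries 1 to 3. The groups did not overlap, and it fell 1.48-fold (log2 fold change -0.57, standard error 0.12, adjusted p = 0.000625 by edgeR). The chains of DM, the peptide exchanger of the endosome, differed in their calls. SLA-DMB fell 1.31-fold from 10.4 ± 1.27 to 7.90 ± 0.532 CPM (SD, n = 3; adjusted p = 0.00997 by edgeR), but missed the threshold without control replicate 1 and with library totals (adjusted p = 0.0619 and 0.112). SLA-DMA went from 30.8 ± 1.06 to 29.2 ± 1.39 CPM and was not called (log2 fold change -0.08, or 0.09 with library totals). SLA-DOA, a chain of the DM inhibitor DO, was at 2.05 ± 0.439 CPM in controls and 1.77 ± 0.178 CPM with AA2P and was not called. MHC genes have similar relatives, so reads could be shared between them.

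**Figure D2:**
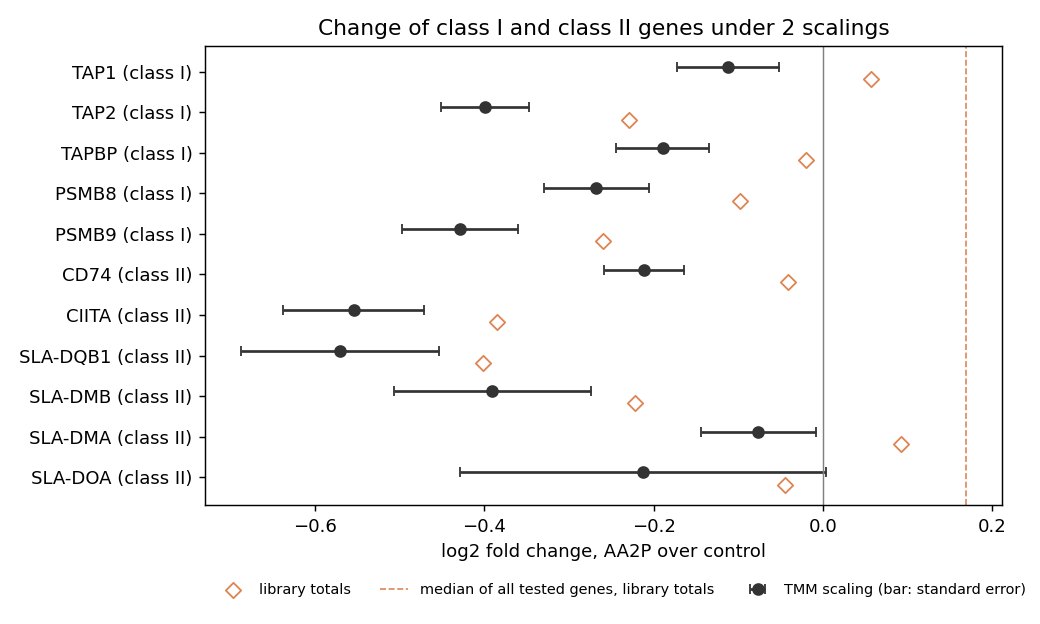
Log2 fold change (AA2P over control, horizontal axis) of class I and class II genes under TMM scaling (filled circles, bars show the standard error) and under library totals (open diamonds); NLRC5, at 2.01, is left out. Under TMM scaling all 11 points lie below 0, from -0.57 for SLA-DQB1 to -0.08 for SLA-DMA, and under library totals TAP1 and SLA-DMA lie above 0.

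Set side by side, the classes overlapped in the size of their changes. Apart from NLRC5, the class I log2 fold changes ran from -0.43 (PSMB9) to -0.11 (TAP1), and the class II genes CD74 and CIITA were at -0.21 and -0.55. CD74 lay between TAPBP (-0.19) and PSMB8 (-0.27), with standard errors of 0.05, 0.05 and 0.06, so the values plus and minus 1 standard error overlapped. CIITA (-0.55) and PSMB9 (-0.43) overlapped in the same way, with standard errors of 0.08 and 0.07. Within class I, so did TAP2 and PSMB9. No p-value is given for the difference between the classes, since the genes are not replicates. Nothing is read from the opposite calls of NLRC5 and CIITA, since NLRC5 passed the filter on low counts through its AA2P values alone.

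Within the AA2P group, library 1 was the lowest in 7 of the 8 genes and library 3 the highest in 5. Library 3 also had the highest mean correlation with the control libraries across genes, 0.970 against 0.959 and 0.961. Without AA2P replicate 3 the calls were again 6 lower and 1 higher. In the AA2P libraries CIITA had the highest coefficient of variation among the genes above 1 CPM, 13.2%, against 4.98% in its controls.

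Ratios of reads within a library do not depend on how libraries are scaled. The 12 ratios computed were chosen with the values of their genes known, so they are given as a description, with no test and no count. In the pig assembly Sscrofa11.1, RefSeq lists TAP2, PSMB8, TAP1 and PSMB9 as consecutive genes on chromosome 7, and in human and mouse TAP1 and PSMB9 share a promoter between them. Reads of such close neighbours could be split differently by a counter that ignores strand.

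TAP1 reads per 100 TAP2 reads were 77.6, 78.6 and 73.4 in control libraries 1 to 3 and 90.4, 98.2 and 91.4 in AA2P libraries 1 to 3. The ratio was higher in all AA2P libraries. PSMB9 reads per 100 TAP1 reads were 45.4, 45.9 and 43.5 in control libraries 1 to 3 and 38.5, 34.1 and 36.0 in AA2P libraries 1 to 3, lower in all AA2P libraries. PSMB9 reads per 100 PSMB8 reads overlapped between the groups, with means of 54.8 ± 4.23 and 49.1 ± 2.81 (SD, n = 3).

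Against PSMB7, the one constitutive catalytic subunit with a row, the immunoproteasome subunits of the set were lower with AA2P. PSMB7 itself was at 63.6 ± 1.91 CPM in controls and 59.9 ± 5.01 CPM with AA2P and was not called under any of the 14 alternatives. PSMB8 reads per 100 PSMB7 reads were 108, 107 and 106 in control libraries 1 to 3 and 82.8, 106 and 96.5 in AA2P libraries 1 to 3. The AA2P library 2 value nearly reached the control range. PSMB9 reads per 100 PSMB7 reads were 62.4, 60.9 and 53.1 in control libraries 1 to 3 and 43.3, 51.0 and 45.2 in AA2P libraries 1 to 3, with AA2P library 2 again the nearest to the controls. PSMB10 reads per 100 PSMB7 reads overlapped between the groups, at 142.0 ± 6.26 and 131 ± 16.0 (SD, n = 3).

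CIITA reads per 100 CD74 reads were 7.84, 8.55 and 8.36 in control libraries 1 to 3 and 5.83, 6.41 and 7.14 in AA2P libraries 1 to 3, lower in all AA2P libraries, with AA2P library 3 the nearest to the controls. SLA-DQB1 reads per 100 CD74 reads were 1.81, 2.19 and 2.34 in control libraries 1 to 3 and 1.54, 1.71 and 1.66 in AA2P libraries 1 to 3, also lower in all AA2P libraries. SLA-DMB reads per 100 CD74 reads overlapped (2.04 ± 0.205 and 1.81 ± 0.126; SD, n = 3), while SLA-DMA reads per 100 SLA-DMB reads were 274, 274 and 354 in control libraries 1 to 3 and 384, 366 and 360.1 in AA2P libraries 1 to 3, higher in all AA2P libraries but by little over control library 3.

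**Figure D3:**
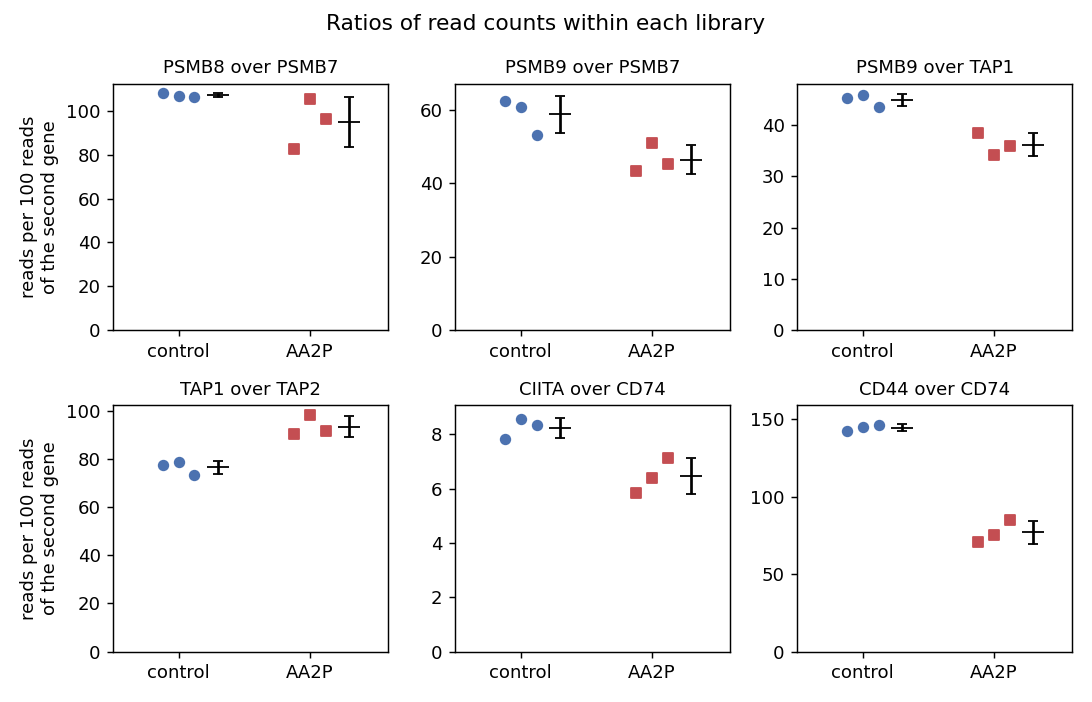
Reads of one gene per 100 reads of another in each library (circles control, squares AA2P, bar for the mean and SD, vertical axes from 0), which no scaling of the libraries can change. TAP1 over TAP2 is higher in the AA2P libraries, at 90.4 to 98.2 against 73.4 to 78.6, and the other 5 ratios are lower.

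Genes that load and trim class I peptides fell as single genes in most cases. Of 13 tested, 10 fell and none rose, beside 26.1% lower and 26.0% higher over all tested genes, with a median log2 fold change of -0.27. With library totals 6 fell and 2 rose, beside 14.3% and 45.1% of all tested genes. PDIA3, the disulfide isomerase of the loading complex, fell 1.56-fold from 1209 ± 30.3 to 773 ± 16.2 CPM (SD, n = 3). Calreticulin (CALR), its lectin chaperone, fell 1.23-fold to 1165 ± 66.0 CPM, and the glucosyltransferase UGGT1 and glucosidase GANAB, which act on the same glycans, fell 1.24-fold and 1.33-fold. The aminopeptidases ERAP1 and ERAP2, which shorten peptides in the endoplasmic reticulum, fell 1.30-fold and 1.23-fold. CALR, PDIA3, UGGT1 and GANAB act on glycoproteins in general.

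Changes in the rest of the proteasome were small. Of 28 tested genes of the constitutive core and cap, 12 fell and 1 rose, with a median of -0.12. Their share called lower was above the 26.1% of all tested genes, and their share called in either direction was below 52.1%. With library totals 2 fell and 5 rose, both below the shares over all tested genes (14.3% and 45.1%). PSMD14, the deubiquitinase of the cap, and PSMB3, a core subunit, fell 1.30-fold and 1.27-fold. PSMA1, PSMA2 and PSMA5 of the outer ring fell 1.16-fold, 1.22-fold and 1.20-fold, and the ATPase PSMC2 fell 1.15-fold. With library totals these last 4 were not called.

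Endosomal genes of the class II route were called in both directions. Of 13 tested, 6 fell and 5 rose, beside 26.1% lower and 26.0% higher over all tested genes, with a median of -0.11. With library totals 4 fell and 5 rose, beside 14.3% and 45.1%. The rows named CTSV and CTSL, which encode closely related cathepsins whose reads could be shared, moved apart: CTSV fell 1.43-fold from 132 ± 0.233 to 92.6 ± 1.84 CPM and CTSL rose 1.71-fold from 4.76 ± 0.125 to 8.16 ± 1.02 CPM (SD, n = 3). The cathepsins CTSB and CTSH fell 1.26-fold and 1.35-fold. MARCHF8, a ubiquitin ligase that removes class II and other molecules from the surface, rose 1.26-fold to 172 ± 7.85 CPM, and the clathrin adaptor subunit AP1M1 rose 1.33-fold.

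Among the transcription factors that CIITA and NLRC5 work with, the share called was near that of all tested genes. Of 10 tested genes 3 fell and 2 rose, with a median of -0.04, near the 26.1% lower and 26.0% higher of all tested genes. With library totals 2 fell and 5 rose, near 14.3% and 45.1%. RFX5, the DNA-binding subunit of the RFX complex, was at 60.3, 62.1 and 65.5 CPM in control libraries 1 to 3 and 83.6, 84.6 and 82.3 CPM in AA2P libraries 1 to 3. All AA2P libraries were above all controls, and RFX5 rose 1.33-fold (adjusted p = 7.2e-06 by edgeR). Its partner RFXANK was at 44.1 ± 0.871 CPM in controls and 40.7 ± 2.22 CPM with AA2P and was not called. Of the CCAAT-binding NFY subunits, NFYB fell 1.40-fold and NFYC rose 1.27-fold. ATF1, a CREB family member, fell 1.18-fold, and IRF1, an interferon-induced activator of class I and CIITA promoters, fell 1.26-fold from 79.2 ± 4.63 to 62.8 ± 3.37 CPM (SD, n = 3). With library totals ATF1 was not called.

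Most tested receptors and kinases of interferon signalling, which induces both classes, fell. Of 12 tested genes 9 fell and 1 rose, beside 26.1% lower and 26.0% higher over all tested genes, with a median of -0.32. With library totals 7 fell and 3 rose, beside 14.3% and 45.1%. IFNGR2, a chain of the interferon-gamma receptor, was at 94.6, 97.4 and 95.6 CPM in control libraries 1 to 3 and 47.9, 49.3 and 52.0 CPM in AA2P libraries 1 to 3. The groups were far apart, and IFNGR2 fell 1.92-fold (log2 fold change -0.94, standard error 0.05, adjusted p = 5.4e-10 by edgeR). The ligand-binding chain IFNGR1 fell 1.68-fold from 19.3 ± 0.886 to 11.5 ± 0.467 CPM (SD, n = 3), and the type I receptor chain IFNAR2 fell 1.65-fold. The kinases JAK1 and TYK2 fell 1.22-fold and 1.24-fold, and PTPN2, a phosphatase that switches the pathway off, fell 1.87-fold.

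**Figure D4:**
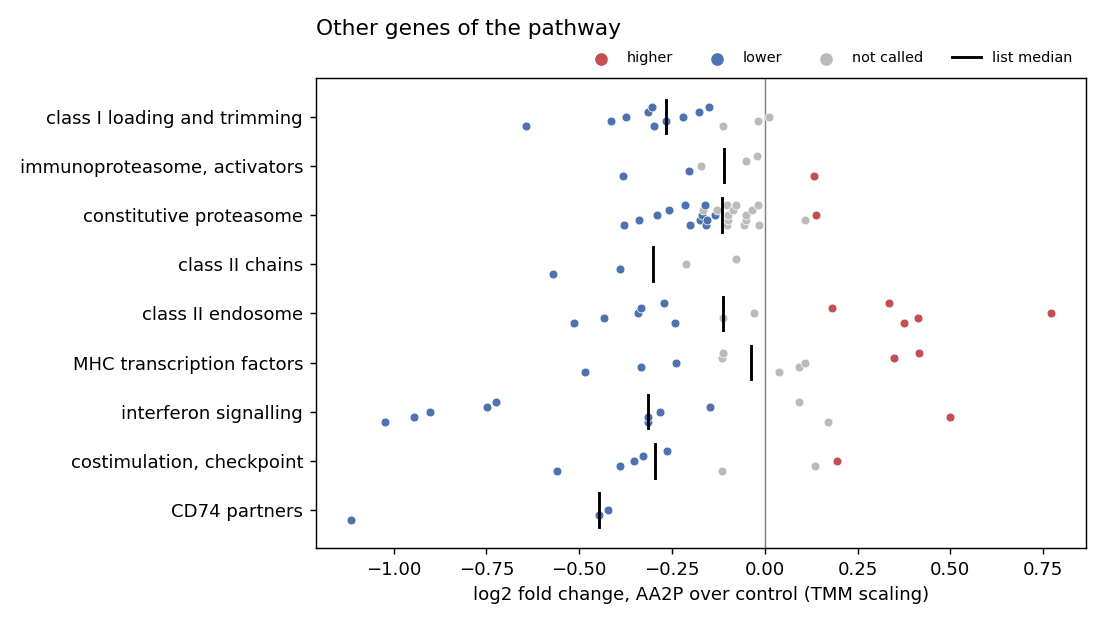
Log2 fold change (AA2P over control, TMM scaling, horizontal axis) of each tested gene in 9 lists of the pathway, coloured by its call at an adjusted p of 0.05, with the list median as a black bar. Points for class I loading lie mostly below 0, with 10 of 13 called lower, while the endosomal list spreads to both sides, with 6 called lower and 5 higher.

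Class I relatives with roles outside classical presentation went different ways. HFE, a regulator of iron uptake, rose 1.41-fold from 14.6 ± 1.07 to 20.5 ± 1.36 CPM (SD, n = 3). FCGRT, the neonatal Fc receptor chain, fell 1.17-fold, but was not called with library totals (adjusted p = 0.379). MR1, which presents vitamin B metabolites, was at 23.2 ± 1.32 and 23.7 ± 1.71 CPM and was not called.

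Markers of professional antigen-presenting cells were examined beside the class II genes. Of 18 such markers, 13 had a row, and their summed level was 119 to 123 CPM in the control libraries and 114 to 125 CPM in the AA2P libraries, which overlapped. Within that sum, of 9 tested genes 3 were called higher and 3 lower, beside 26.0% higher and 26.1% lower over all tested genes. FLT3 and CD14 held most of it and moved against each other: FLT3 was called higher, from 72.6 ± 1.27 to 79.8 ± 2.78 CPM, and CD14 lower, from 28.5 ± 1.73 to 20.5 ± 2.00 CPM (SD, n = 3). Of the called markers, CD14, ITGAM and TYROBP moved in the direction of CD74 and CIITA, and FLT3, AIF1 and SPI1 in the other. The 3 remaining tested markers were not called. The myeloid integrin ITGAM fell 4.20-fold from 6.05 ± 0.603 to 1.42 ± 0.410 CPM, and the adaptor TYROBP fell 5.25-fold from 1.59 ± 0.485 to 0.286 ± 0.110 CPM. TYROBP passed the filter on low counts through its control values alone, so its difference was partly fixed by that filter. AIF1, a macrophage marker, rose 7.09-fold from 0.727 ± 0.314 to 5.17 ± 0.348 CPM. The control values of AIF1 alone would not have passed the filter on low counts, so its difference was also partly fixed by that filter. The myeloid factor SPI1 rose from 1.97 ± 0.241 to 2.79 ± 0.269 CPM (adjusted p = 0.0331 by edgeR). The macrophage genes CSF1R, CD163, CD68 and C1QC were near 0, at 0.0324 ± 0.0561, 0.0367 ± 0.0636, 0.345 ± 0.0384 and 0.0162 ± 0.0280 CPM in controls and 0.0137 ± 0.0237, 0.0167 ± 0.0289, 0.171 ± 0.0265 and 0.0771 ± 0.0249 CPM with AA2P. Of 12 T and natural killer cell markers 7 had a row, with a sum of 2.48 to 3.70 CPM in controls and 7.07 to 8.16 CPM with AA2P, mostly from CD3E, while CD3D was at 0 in the controls. Of 6 B cell markers 4 had a row and summed to 0.406 to 0.551 CPM and 0.751 to 0.863 CPM. The peritubular and stromal list summed to 59.8 to 63.7 CPM in controls and 16.2 to 21.9 CPM with AA2P. That sum rested on DES, which went from 39.1 ± 1.92 to 8.35 ± 1.83 CPM, and COL1A1, which went from 21.0 ± 1.32 to 8.25 ± 2.27 CPM. In the same list CNN1 was called higher, from 0.595 ± 0.139 to 1.18 ± 0.167 CPM. As with AIF1, the control values of CNN1 alone would not have passed the filter, which partly fixed its difference. ACTA2, MYH11, PDGFRA and PDGFRB averaged under 0.5 CPM in either group. The Leydig, endothelial and germ cell lists summed to at most 13.7 CPM in any library. The summed level of the Sertoli list was 4173 to 4482 CPM in the controls and 1203 to 1731 CPM with AA2P, most of it CLU. The part of these lists in the results above was not tested.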

How the data were processed

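RNA of 6 libraries was sequenced together in 1 lane, per the labels' protocols. HISAT2 2.0.5 (aligner) and bcl2fastq are named in the submitters' processing notes. How reads were counted, with which strand setting, genome build and annotation, is not given in the sources used here, so no coordinates are printed. The authors deposited whole-number read counts per gene, not normalized. Symbols came from a table of gene names, which matched 13141 of 17670 identifiers.

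In R 4.3.3, edgeR 4.0.16 fitted group alone with TMM factors and filterByExpr, tested 12701 genes by the quasi-likelihood F test, and adjusted over all of them (Benjamini-Hochberg, 0.05). The filter asked for about 0.486 CPM, or 10 reads, in 3 libraries. The common biological coefficient of variation was 5.49%. Each standard error was the size of the log2 fold change divided by the root of F. CPM values are TMM scaled. Replicates differed by more than sampling noise (chi-square per degree of freedom 2.63 to 11.5). The procedure was tested on simulated data.

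The genes and lists were chosen with earlier results of these data known. Named were all genes of the set with a row, all SLA genes, called genes of each list (all in lists of up to 8 tested genes, otherwise the 6 with the smallest p), PSMB5, PSMB6, PSMB7, RFX5, RFXAP, RFXANK, IFNGR1 and IFNGR2. PSMB5, PSMB6 and RFXAP are not analysed here. PSME1, PSME3, POMP, MR1 and CD274 were named after their values were seen, as were the marker genes. Some genes of the lists are not reported here by name. Alternatives were DESeq2 1.42.0 size factors and Wald test, library totals, 2 other filters, limma-voom (limma 3.58.1), the replicate number as a block, an adjusted p of 0.01 and each library left out. Counts of the other lists under these were added after seeing the data. No library was left out of the main comparison.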

Additional observations from a re-analysis of the deposited data

How the results depend on the processing

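Of 57 named genes under up to 14 alternatives each, 766 values kept the direction and the side of the threshold, 27 kept the direction but lost the call and 4 changed sign. All 4 sign changes came with library totals, in genes not called under either scaling: TAP1 at 0.0572, SLA-DMA at 0.0927, PSMB7 at 0.0847 and RFXANK at 0.0543 on the log2 scale. With library totals 5727 genes were called higher and 1822 lower, against 3302 and 3313. The antigen presentation genes called lower were then 3 (2 of class I and 1 of class II), and the class medians were -0.0591 and -0.213. With 1 CPM in 3 libraries 0 genes of the set, and 0 of class I, were called higher, since NLRC5 was not tested.

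Leaving out each library in turn gave 2869 to 3438 genes higher and 2845 to 3437 lower, and 5 to 6 genes of the set lower. The replicate numbers gave no sign of pairing: same-numbered deviations correlated at -0.04, -0.02 and -0.06, and no library correlated best with its own number. With 3 libraries per group, these values cannot show whether same-numbered libraries shared a culture, which the labels do not state. With the replicate block 3094 genes were called higher and 3110 lower, and in the set 1 and 6 as without it. The block also ended the call of PSME4 (adjusted p = 0.0701). NLRC5, at 1 to 6 reads per control library, is limited by depth.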

Other observations

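Of 7 listed partners of CD74 outside the class II route, 3 had a row. All 3 fell, beside 26.1% called lower over all tested genes. At the cell surface CD74 binds the cytokine MIF and signals together with CD44. CD44 was at 729, 749.7 and 719.6 CPM in control libraries 1 to 3 and 302, 326 and 386 CPM in AA2P libraries 1 to 3. It fell 2.17-fold, and CD44 reads per 100 CD74 reads went from 145 ± 2.08 to 77.1 ± 7.45 (SD, n = 3). MIF fell 1.34-fold from 346 ± 8.30 to 258 ± 22.9 CPM, and MIF reads per 100 CD74 reads were 69.3, 65.6 and 70.1 in control libraries 1 to 3 and 54.5, 60.5 and 61.6 in AA2P libraries 1 to 3, without overlap. ACKR3, a scavenging chemokine receptor that MIF can bind, fell 1.36-fold to 15.8 ± 0.443 CPM. All 3 were also called lower with library totals, beside 14.3% of all tested genes.

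Surface molecules that accompany antigen presentation were mostly lower. Of 8 tested genes of costimulation and checkpoint 5 fell and 1 rose, beside 26.1% lower and 26.0% higher over all tested genes. With library totals 4 fell and 1 rose, beside 14.3% and 45.1%. CD40, a receptor that T cells engage on presenting cells, fell 1.47-fold from 14.6 ± 0.913 to 9.86 ± 0.695 CPM (SD, n = 3). The adhesion molecule ICAM1, the inhibitory family member CD276, the ligand TNFSF9 and the adhesion ligand CD58 fell 1.28-fold, 1.31-fold, 1.26-fold and 1.20-fold, though CD58 was not called with library totals. CD86, a ligand of CD28, went from 28.5 ± 1.62 to 32.7 ± 1.04 CPM and lost its call under 4 of 14 alternatives. CD274, the ligand PD-L1, was at 1.46 ± 0.400 and 1.35 ± 0.231 CPM and was not called.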
